A study of Mus musculus with 18 samples.

Results

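The Snrpn-Ube3a imprinted cluster lies on mouse chromosome 7 and was examined through 6 of its genes, Snrpn, Snurf, Snhg14, Ube3a, Ndn and Magel2. The members were all loci of the deposited table whose symbol field, split on commas, held 1 of these 6 names. This gave 12 loci of 168136 in all and of 52179 with a symbol. A locus is a set of transcripts that the authors' assembly put under 1 identifier, and 9 of the 12 carry the name Snhg14. Neuro2A, a wild-type mouse neuroblastoma line that grows with neuron-like features, was the only cell type. Cells were transfected with biotinylated miR-92b or a biotinylated scrambled sequence (Scr), each at 25 nM, or were left untransfected (control). RNA of nuclear lysates and of whole cell lysates was collected on streptavidin beads, giving 6 groups of 3 samples. The labels do not say whether the 3 samples of a group are separate cultures, so that p-values measure the spread between these samples, which may be technical. Libraries were made from RNA selected with oligo-dT beads. A single cell line was used, and a mimic at this dose is an added RNA, not the miR-92b of the cell.

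In this cluster the 2 parental copies of a gene are used unequally. Snurf and Snrpn share a transcript, which encodes the small SNURF protein and SmN, a neuronal form of the Sm proteins that coat spliceosomal RNAs. The same transcription unit runs on as Snhg14, a long RNA that is spliced around many small nucleolar RNA (snoRNA) copies of the Snord116 and Snord115 types and, in neurons, continues as an antisense transcript across Ube3a. Ndn and Magel2 encode 2 proteins of the MAGE family, Necdin and a partner of the retromer-bound TRIM27 ubiquitin ligase. These genes are used from the paternal chromosome, while neurons use Ube3a, the gene of the ubiquitin ligase E6AP, mainly from the maternal chromosome. Loss of the paternal genes is known for Prader-Willi syndrome and loss of maternal UBE3A for Angelman syndrome.

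The sequences of the small RNAs at issue are given first. The mimic that was transfected carries the miR-92b-3p sequence, whose seed (bases 2 to 8, in capitals) sets which sites it can pair with. RefSeq (GRCm38.p6) places it at chr3:89227126-89227147 on the minus strand.

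miR-92b-3p: uAUUGCACucgucccggccucc

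The snoRNAs joined by name to member loci are shown because they tell which stretch of the long Snhg14 unit a locus covers. Capitals mark the C box (TGATGA, first match) and the D box (CTGA, last match), read on the RNA strand in GENCODE M21 (GRCm38) transcripts. Gm25646 (chr7:59379451-59379529, minus strand, 79 nucleotides) has the sequence of the Snord115 type. Gm22285 (chr7:59678509-59678602) and Gm22128 (chr7:59771656-59771749), both on the minus strand and of 94 nucleotides, have the same sequence, which is of the Snord116 type and occurs 30 times in the annotation, all 30 within the cluster. Snord107 (chr7:59980876-59980945, minus strand, 70 nucleotides) is a single copy between Snhg14 and Snrpn.

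Gm25646: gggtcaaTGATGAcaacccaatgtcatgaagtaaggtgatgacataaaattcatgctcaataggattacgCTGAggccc

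Gm22285 and Gm22128: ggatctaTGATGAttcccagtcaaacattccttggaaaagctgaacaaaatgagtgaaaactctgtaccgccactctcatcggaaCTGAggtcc

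Snord107: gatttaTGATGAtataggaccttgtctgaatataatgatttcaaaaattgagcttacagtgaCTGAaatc

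Of 1507 annotated mouse snoRNAs, 20.5% hold both boxes within 20 nucleotides of their ends, and 208 snoRNAs lie inside Snhg14. Oligo-dT selection collects RNA with a poly(A) tail, so the reads of a locus with a snoRNA in its name are not a measure of the mature snoRNA. Reads from identical copies cannot be placed on 1 copy either.

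The 12 loci were spread over the cluster as follows, with the region that the authors' table lists for each in GRCm38 and whole genes from GENCODE M21. Ube3a (chr7:59228750-59311536, plus strand) was a locus of its own, XLOC_133222. A Snhg14 locus, XLOC_138233, shared its listed region, chr7:59223847-59324149, and the 3′ ends of the 2 genes overlap there. Further along Snhg14 (chr7:59307924-59975759, minus strand) came XLOC_138263, joined to Gm25646 (region chr7:59379451-59411191), and XLOC_138292, Snhg14 alone (region chr7:59445703-59453239). A region with 73 loci (chr7:59619158-59904686) held XLOC_138383, joined to Gm22285, XLOC_138423, joined to Gm22128, and 3 more Snhg14 loci. XLOC_138469 (region chr7:59937371-60140219) joined Snrpn, Snurf, Snord107, Gm38393 and a part of Snhg14 and is called the Snurf-Snrpn locus here. Its value cannot be split between its genes, and SmN reads can also be shared with the near-identical Snrpb. How the counting treated strand is not stated, so reads of Ube3a and of transcripts antisense to it cannot be told apart. Ndn (chr7:62346569-62350262) and Magel2 (chr7:62377010-62381640), both on the plus strand, stood apart from the rest.

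Loci with a symbol drew 3752991 to 22920037 reads in a sample. Values are on 2 scales, normalized counts (the reads of a locus over the size factor of its library) and FPKM, which also divide by length. Member loci held 0.0578% to 0.0781% of these reads in nuclear samples and 0.0464% to 0.0569% in whole cell samples, ranges that did not overlap. Their summed normalized counts did overlap, with 3249 in nuclear control sample 1 and 3308 in whole cell Scr sample 1. Shares of other sets of loci were not computed. As a check of the compartments, the nuclear RNA Malat1 was higher in nuclear samples by 1.08 ± 0.16 (SE, log2 scale) and Neat1 by 1.06 ± 0.14, while Gapdh fell by 2.35 on the log2 scale with an SE of 0.20. Whole cell miR-92b sample 3 stood apart with a normalized count of 12918 for Gapdh against a whole cell median of 4576, and the fold changes of the 7 tested members between compartments are also given without it. Of 7 markers of fibroblasts, leukocytes and astrocytes, 6 had a mean under 10 normalized counts, the exception being the astrocyte gene Gfap with 41.5, and their sum was 0 to 87.0 per sample. The sympathetic neuron list, with Gata2 and Hand2 present, summed to 4722 to 5840.

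Per length, Ube3a, the Snurf-Snrpn locus and the Snhg14 locus joined to Gm22285 formed the top of the order. Over the 18 samples the median FPKM was 76.1 for Gm22285-Snhg14, 72.3 for Ube3a and 53.3 for the Snurf-Snrpn locus. Their ranges overlapped, at 52.9 to 130 FPKM, 44.9 to 193 FPKM and 34.8 to 479 FPKM. XLOC_138292 (median 22.8 FPKM), Gm25646-Snhg14 (13.7 FPKM), XLOC_138233 (11.4 FPKM) and Gm22128-Snhg14 (3.31 FPKM) followed. The ranges of neighbours in this order overlapped, except that Gm22128-Snhg14 reached at most 5.66 FPKM, below the lowest value of XLOC_138233 (8.55 FPKM). The order differed by compartment. In nuclear samples the median of Ube3a (74.2 FPKM) was above that of Gm22285-Snhg14 (66.1 FPKM), and in whole cell samples that of XLOC_138233 (11.2 FPKM) was above that of Gm25646-Snhg14 (8.09 FPKM). Pieces of Snhg14 thus differed in median level, although they carry 1 gene name.

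**Figure D1:**
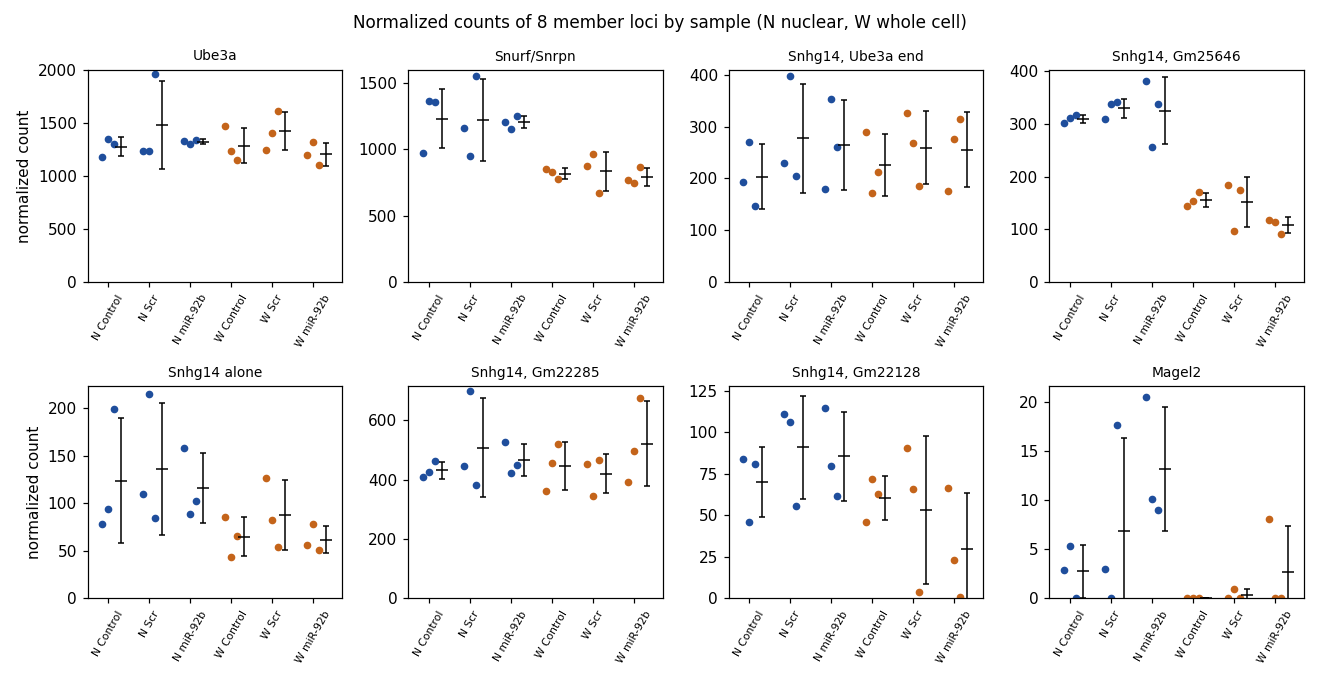
Normalized counts (vertical axes, each from 0) of 8 member loci in each of the 18 samples, by group (N nuclear, blue, W whole cell, orange), with the mean and SD of 3 samples beside the points. Snhg14 joined to Gm25646 sits above all whole cell samples in every nuclear sample, and Ube3a lies at a similar height in all groups; Magel2 has at most 20.5 normalized counts.

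Ndn was not detected. It had 0 reads in all 18 samples. For a count of 0 in a library, 3 reads, or 0.786 to 4.75 normalized counts, was taken as an approximate upper limit, with counting error only. Magel2 had 84 reads in all, in 9 samples. Its normalized counts were 2.89, 5.38 and 0 in nuclear control, 3.05, 0 and 17.7 in nuclear Scr and 20.5, 10.1 and 9.002 in nuclear miR-92b samples. In whole cell lysates they were 0 in all 3 control samples, 0, 1.01 and 0 with Scr and 8.10, 0 and 0 with miR-92b. Reads thus came mostly from nuclear samples, and the nuclear miR-92b samples overlapped the nuclear Scr samples. The mean of 4.32 lay under the limit of 10 for testing, as did the means of 1.05, 4.36 and 7.66 of the 3 small Snhg14 loci, XLOC_138385, XLOC_138393 and XLOC_138399. For XLOC_138385, 16 of the 20 reads came from whole cell miR-92b sample 1. The other 7 loci passed.

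Nuclear and whole cell samples were compared to see where RNA of the cluster was recovered. The Snhg14 locus joined to Gm25646 and the Snurf-Snrpn locus were higher in nuclear samples, while Ube3a, the Snhg14 locus beside it and the one joined to Gm22285 were close to even. A two-sided limma test of log2(normalized count + 1), with all 6 groups fitted together, was run on 15579 loci with a symbol and a mean of at least 10, with Benjamini-Hochberg adjustment. In the mean over the 3 treatments, 2 of the 7 tested members were higher and 0 lower, beside 15.3% of all tested loci that were higher (2377 higher and 2454 lower, or 1389 and 2515 by FPKM). Over all tested loci the median log2 fold change was 0.14, and values relative to it are given below. In bulk samples, fewer cells with an RNA and less RNA per cell cannot be told apart.

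Gm25646-Snhg14 covers the Snord115 end of the host transcript. Its normalized counts were 302, 311 and 316 in nuclear control, 309, 337 and 342 in nuclear Scr and 381, 256 and 337 in nuclear miR-92b samples. Whole cell samples held 145, 153 and 171 in control, 184, 97.2 and 174 with Scr and 119, 114 and 91.1 with miR-92b. Every nuclear sample was above every whole cell sample. Only 2.91% of all tested loci (454) were higher in this way, and of the 7 members only this one was. The log2 fold change was 1.24 ± 0.18 (SE, limma, adjusted p = 9.20e-06), or 1.10 relative to the median locus, and 1.20 without whole cell miR-92b sample 3. FPKM gave the same picture, with 17.0 to 23.5 in nuclear and 4.52 to 10.4 in whole cell samples.

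The Snurf-Snrpn locus, at the promoter end of the unit, showed a smaller difference. Its normalized counts were 973, 1369 and 1356 in nuclear control, 1159, 951 and 1557 in nuclear Scr and 1209, 1157 and 1253 in nuclear miR-92b samples. Whole cell values were 851, 827 and 775 in control, 872, 964 and 675 with Scr and 767, 747 and 871 with miR-92b. The groups overlapped by 1 sample on each side, nuclear Scr sample 2 (951) and whole cell Scr sample 2 (964). The log2 fold change was 0.57 ± 0.11 (SE, limma, adjusted p = 4.95e-04), or 0.43 relative to the median locus. Without whole cell miR-92b sample 3 it was 0.59 (adjusted p = 1.65e-04).

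On the FPKM scale the call of the Snurf-Snrpn locus was lost. FPKM ranged from 52.5 to 76.7 in nuclear samples and from 34.8 to 51.5 in 8 whole cell samples, but was 479 in whole cell Scr sample 1, whose normalized count of 872 was like those of the others. With all samples the log2 fold change of log2(FPKM + 0.1) was 0.19 (limma, adjusted p = 0.727), and without that sample it was 0.56 (adjusted p = 0.00337). This alternative was chosen after seeing the data.

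Ube3a, the gene at the far end of the cluster, was even between compartments by counts. Its normalized counts were 1176, 1350 and 1302 in nuclear control, 1239, 1236 and 1957 in nuclear Scr and 1334, 1298 and 1337 in nuclear miR-92b samples. In whole cell lysates they were 1469, 1235 and 1153 in control, 1249, 1410 and 1613 with Scr and 1197, 1318 and 1101 with miR-92b. Ranges overlapped almost fully, and nuclear Scr sample 3 was the highest. The log2 fold change was 0.05 ± 0.11 (SE, limma, adjusted p = 0.737), and without nuclear Scr sample 3 it turned to -0.02 (adjusted p = 0.891). Without whole cell miR-92b sample 3 it was 0.03. By FPKM it was 0.47 ± 0.18 (SE, limma, adjusted p = 0.0726), and 0.31 without nuclear Scr sample 3. A gene annotated on the other strand across the start of Ube3a, 9330162G02Rik (chr7:59223847-59254788), had 1981 to 3276 normalized counts in nuclear and 441 to 1475 in whole cell samples. Its nuclear samples all lay above its whole cell samples, as was so for 2.91% of all tested loci. It is no member and was chosen after its values were seen, and its share in the Ube3a reads was not tested.

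The other Snhg14 loci went different ways. XLOC_138292 had 78.0 to 215 normalized counts in nuclear samples (median 103) and 44.1 to 127 in whole cell samples (median 65.5), and overlapped. Its log2 fold change of 0.77 ± 0.32 (SE, limma) missed the threshold (adjusted p = 0.0684), and passed it with edgeR (adjusted p = 0.0456) and DESeq2 (adjusted p = 0.0231) and, by limma, without nuclear Scr sample 3 (0.87, adjusted p = 0.0430) or whole cell Scr sample 1 (0.88, adjusted p = 0.0444). Without whole cell miR-92b sample 3 it was 0.73 (adjusted p = 0.0895). Gm22128-Snhg14 had 45.7 to 115 normalized counts in nuclear samples (median 80.7) and 0.637 to 90.3 in whole cell samples (median 63.1). Whole cell miR-92b sample 3 held 1 read of this locus and whole cell Scr sample 3 held 14. Its log2 fold change was 1.44 ± 0.64 (SE, limma, adjusted p = 0.0914), and left-out samples moved it from 0.92 without whole cell miR-92b sample 3 (adjusted p = 0.181) to 1.82 without whole cell miR-92b sample 1 (adjusted p = 0.0265). It was 0.86 with edgeR (adjusted p = 0.283) and 0.85 with DESeq2 (adjusted p = 0.234).

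The Snhg14 locus beside Ube3a and the locus joined to Gm22285 did not differ by the test. The first had 147 to 397 normalized counts in nuclear samples (median 230) and 173 to 326 in whole cell samples (median 268), with a log2 fold change of -0.02 ± 0.21 (SE, limma, adjusted p = 0.958). Its sign turned under median scaling, quantile normalization, edgeR and DESeq2, and without whole cell miR-92b sample 3 (0.04). Gm22285-Snhg14 had 381 to 699 in nuclear samples (median 446) and 344 to 675 in whole cell samples (median 458). Its log2 fold change was 0.02 ± 0.14 (SE, limma, adjusted p = 0.920), 0.09 without whole cell miR-92b sample 3, and -0.22 by FPKM.

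**Figure D2:**
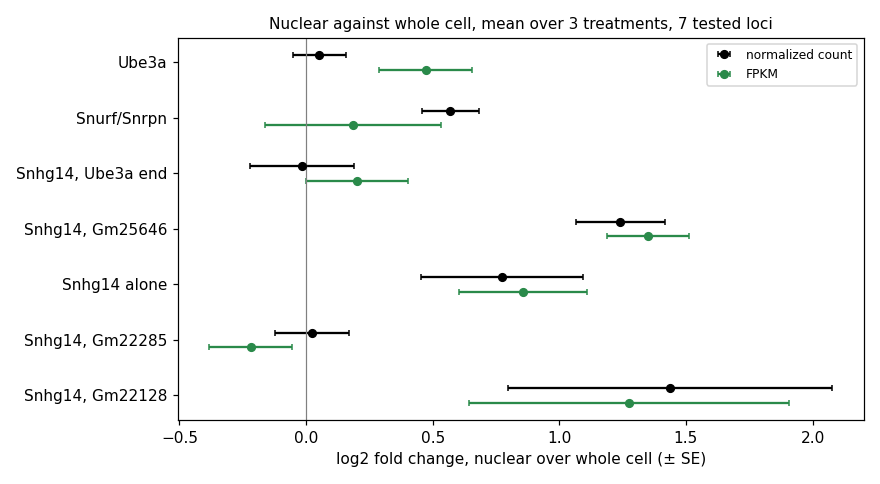
Log2 fold change of nuclear over whole cell samples (horizontal axis, mean over the 3 treatments, bars ± SE of limma) for the 7 tested loci, from normalized counts (black) and from FPKM (green). Gm25646-Snhg14 lies near 1.24 and 1.35 on the 2 scales, Ube3a moves from 0.05 to 0.47, and the Snurf-Snrpn locus moves from 0.57 to 0.19.

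Within single treatments the Gm25646-Snhg14 locus passed the test each time. Its log2 fold change was 0.99 ± 0.30 in control (SE, limma, adjusted p = 0.0392), 1.17 ± 0.30 with Scr (adjusted p = 0.0265) and 1.57 ± 0.30 with miR-92b (adjusted p = 0.00133). Leaving out any 1 of the 6 control samples took the control call away, with values of 0.93 to 1.05 (adjusted p = 0.0765 to 0.123). Without Scr nuclear sample 2 or 3 or whole cell sample 2 the Scr call went too, at 1.15, 1.14 and 0.87. The Snurf-Snrpn locus had log2 fold changes of 0.57 ± 0.20 in control (SE, limma, adjusted p = 0.0671), 0.53 ± 0.20 with Scr (adjusted p = 0.112) and 0.60 ± 0.20 with miR-92b (adjusted p = 0.0431). That last call was lost without any of the 3 nuclear samples or without whole cell sample 1 or 2, at 0.56 to 0.63, and the control value passed without nuclear sample 1 (0.74, adjusted p = 0.0342). Of all tested loci, 2.94% were higher in nuclear samples in control, 1.46% with Scr and 6.66% with miR-92b. With 1 sample left out these shares were 0.924% to 2.29% in control (lowest without nuclear sample 3), 0.571% to 1.51% with Scr (lowest without nuclear sample 2) and 2.84% to 11.1% with miR-92b, where leaving out nuclear sample 3 gave the lowest, whole cell sample 1 the highest and whole cell sample 3 gave 2.85%. The members called were 1 of 7 in control, 1 of 7 with Scr and 2 of 7 with miR-92b.

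Ratios of 2 loci in the same sample do not depend on the scaling between samples, and all 21 pairs of the 7 loci were compared by a two-sided exact permutation test of 9 nuclear against 9 whole cell samples, a test added after seeing the data. The ratio differed for 10 of the 21 pairs after Benjamini-Hochberg adjustment. The pairs reuse the same 7 loci, so they are not independent of each other or of the fold changes above. The mean log2 ratio of Ube3a to Gm25646-Snhg14 was 2.07 in the nuclear and 3.26 in the whole cell set, a difference of -1.19 (exact permutation p = 4.11e-05, the smallest this test can give, adjusted p = 4.32e-04). The mean log2 ratio of Gm25646-Snhg14 to Gm22285-Snhg14, 2 loci of 1 gene, was -0.53 and -1.75, a difference of 1.22 with the same exact permutation p and adjusted p. That of Ube3a to the Snurf-Snrpn locus was 0.16 and 0.67, a difference of -0.52 (exact permutation p = 8.23e-05, adjusted p = 5.76e-04). Ube3a and Gm22285-Snhg14 kept a log2 ratio of 1.54 and 1.51, a difference of 0.03 (exact permutation p = 0.882, adjusted p = 0.882). With FPKM in place of counts 6 pairs passed, and without whole cell miR-92b sample 3 there were 7. No share over pairs of other loci was computed, so the count of 10 cannot be read as particular to the cluster. Singly, 4831 of the 15579 tested loci (31%) differed between compartments by limma in the mean over treatments.

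**Figure D3:**
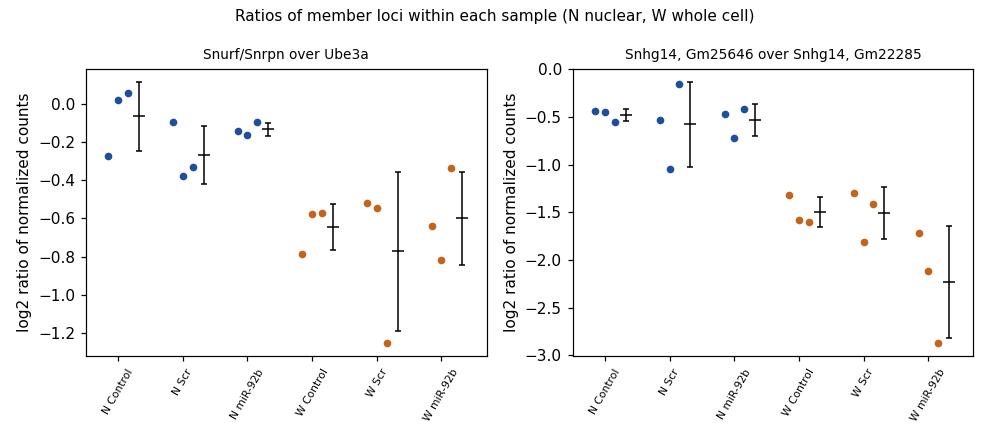
Log2 ratio of normalized counts within each of the 18 samples (vertical axes), by group (N nuclear, blue, W whole cell, orange), with the mean and SD of 3 samples, for the Snurf-Snrpn locus over Ube3a and for Gm25646-Snhg14 over Gm22285-Snhg14. In both panels nuclear samples sit higher on average. In the left panel nuclear Scr sample 2 lies below whole cell miR-92b sample 3. In the right panel the 2 compartments do not overlap, and no share over other pairs was computed.

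Normalized count over FPKM gives an implied length, the length by which FPKM divided the reads, scaled per sample on 1839 loci with 1 annotated transcript. It was compared by a two-sided exact permutation test in the 6 member loci with at least 20 reads in every sample, with p adjusted over all 8238 tested loci that met this. It differed for 4 of the 6, beside 25.7% of the 8238 (584 shorter in nuclear samples and 1531 longer). At an unadjusted p under 0.05 the count was also 4 of 6, beside 36.4% of the 8238. For Ube3a it was 2089 ± 385 nucleotides in nuclear and 2902 ± 626 in whole cell samples (SD, n = 9, exact permutation p = 0.00370, adjusted p = 0.0197). For the Snhg14 locus beside it, the values were 2418 ± 225 and 2923 ± 366 (SD, n = 9, exact permutation p = 9.46e-04, adjusted p = 0.00747). XLOC_138292 went the same way, from 481 in nuclear to 525 in whole cell samples (adjusted exact permutation p = 0.0178), and Gm22285-Snhg14 the other way, from 835 to 730 (adjusted exact permutation p = 0.0476). The Snurf-Snrpn locus had 2350 to 2709 nucleotides in nuclear samples and 2270 to 2996 in 8 whole cell samples, but 246 in whole cell Scr sample 1.

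**Figure D4:**
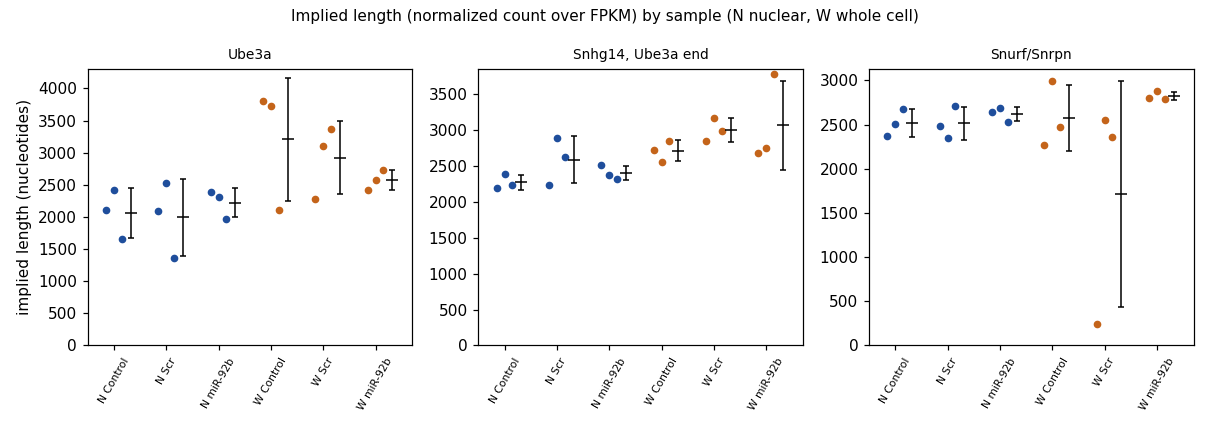
Implied length in nucleotides (vertical axes from 0, normalized count over FPKM, scaled per sample) of Ube3a, the Snhg14 locus beside Ube3a and the Snurf-Snrpn locus in the 18 samples, by group (N nuclear, blue, W whole cell, orange), with mean and SD of 3 samples. Ube3a spans 1354 to 2529 in nuclear and 2102 to 3798 in whole cell samples, and 1 whole cell Scr sample of the Snurf-Snrpn locus lies at 246.

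The main comparison of the study, RNA collected with miR-92b against RNA collected with Scr, showed no member that differed by the tests used here. With Cuffdiff, which was not run here, the authors reported genes that differed in nuclear and in whole cell samples. In nuclear samples limma called 0 of the 7 members, beside 0% of all tested loci (49 loci without nuclear Scr sample 1), with 0 members and 687 loci in all at an unadjusted p under 0.05. edgeR called 0 members and 0 loci, and DESeq2 called 0 members and 1 locus. In whole cell samples 0 members were called by limma, beside 0.00642% of all loci (1), with 0 members and 1515 loci at an unadjusted p under 0.05. There edgeR called 0 members and 1 locus, and DESeq2 called 0 members and 176 loci. The log2 fold changes of the 7 members ran from -0.15 to 0.01 in nuclear and from -1.14 to 0.29 in whole cell samples. For Ube3a the log2 fold change was -0.12 ± 0.18 (SE, limma) in nuclear and -0.24 ± 0.18 in whole cell samples, and without nuclear Scr sample 3 the first was 0.10. For the Snurf-Snrpn locus it was 0.01 ± 0.20 and -0.06 ± 0.20. The difference between compartments was 0.11 ± 0.26 (SE, limma) for Ube3a and 0.07 ± 0.28 for the Snurf-Snrpn locus, and 0 members were called for it by limma, beside 0.00642% of all loci (1). For this difference edgeR called 0 members and 1 locus, and DESeq2 called 0 members and 40 loci. By FPKM the Snurf-Snrpn locus was at -1.39 in whole cell samples and at 1.31 for the difference, neither of them called. Whole cell Scr sample 1, with an FPKM of 479 at this locus, enters both values. With 3 samples per group, changes of the size of these errors were not detectable.

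Against untransfected control cells limma called 0 of the 7 members for miR-92b in nuclear samples, beside 0% of all loci, and 0 in whole cell samples, beside 0.00642%. For Scr against control it called 0 members, beside 0% of all loci in each compartment. In these 4 comparisons 0 members had an unadjusted p under 0.05 with limma, edgeR or DESeq2, beside 0.321% to 5.88% of all loci with limma. For the whole cell comparisons DESeq2 called 21 loci for miR-92b and 37 for Scr. They share control samples with each other and Scr samples with the comparison of miR-92b and Scr.

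Matches to the miR-92b seed were located to show where the mimic could pair. Sites were GTGCAAT (pairing with bases 2 to 8, an 8mer where an A follows) and TGCAATA (bases 2 to 7 with a following A), read on the RNA strand only, and an 8mer was counted once. In annotated 3′ untranslated regions, 13.3% of 21039 mouse coding genes hold such a site. Of the members, Ube3a had 2 sites, both of the second kind, Snrpn, Ndn and Magel2 had 0, and the annotated Snurf transcript has no 3′ untranslated region to search. The longest region searched was 6606 nucleotides for Ube3a, 745 for Snrpn, 877 for Ndn and 436 for Magel2. The share of 13.3% is not matched for length. The Ube3a sites, at chr7:59307158-59307164 and chr7:59307723-59307729 on the plus strand, are shown in capitals with flanks.

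Ube3a, first site: tcaaattcattTGCAATAaccttaccttt

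Ube3a, second site: gaaaatgtactTGCAATAatactagtagt

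The 15 annotated Snhg14 transcripts, searched whole and up to 6861 nucleotides long, held 4 sites. No share was computed for whole transcripts of other genes. The only 8mer is at chr7:59667301-59667308 on the minus strand, in the listed region of Gm22285-Snhg14.

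Snhg14, 8mer: gctaattttctGTGCAATAgacttccgtat

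Neither Ube3a nor any Snhg14 locus was called in miR-92b against Scr, as given above. A match is a description of letters and does not show binding.

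Other genes of the pathway and the place were read for context. In the nuclear against whole cell test, 2377 of all 15579 tested loci (15.3%) were higher and 2454 lower. Of 7 tested neighbours on chromosome 7, among them Herc2, a ubiquitin ligase gene, and Tubgcp5, a gene of the gamma-tubulin complex, 0 passed the nuclear against whole cell test by limma, with a median log2 fold change of -0.09 beside 0.14 over all loci. Herc2 was at -0.04 ± 0.10 (SE) and Tubgcp5 at 0.06 ± 0.17 (SE, limma, adjusted p = 0.813). Of the 7 core Sm protein genes, 1 was higher in nuclear samples (Snrpd3) and 3 lower (Snrpd2, Snrpf and Snrpg), and the median log2 fold change was -0.62. Snrpf and Snrpg are named because they were called, after their values were seen. Snrpb, the paralog of Snrpn, was at -0.31 ± 0.18 (SE, limma, adjusted p = 0.186). Of the 6 tested genes of the MAGEL2 ligase and retromer, 0 were higher and 2 lower, Vps26a and Vps35, which encode retromer subunits. Usp7, a deubiquitinase of that complex, was at 0.08 ± 0.12 (SE).

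Imprinted genes elsewhere gave a wider comparison. Of their 33 tested loci, 8 were higher in nuclear samples and 4 lower, beside 2377 higher and 2454 lower of 15579 in all. Their median log2 fold change was 0.50 beside 0.14 over all loci, and several of these loci are pieces of 1 gene, Igf2r. Kcnq1ot1, a long antisense RNA of an imprinted cluster, was higher by 0.98 ± 0.14 (SE, limma, adjusted p = 1.22e-05). Peg3, a zinc finger gene, was higher by 0.56 ± 0.11 (SE, limma, adjusted p = 3.24e-04). Gnas, the gene of a G protein subunit, was at 0.07 ± 0.09 (SE, limma, adjusted p = 0.610). In miR-92b against Scr limma called 0 of the 33 in either compartment.

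The loci most like each tested member over the 18 samples, by Pearson's r of log2(normalized count + 1), are given as a description. For Gm25646-Snhg14 they were A830019P07Rik (r = 0.951), Prune2 (0.945) and Ahnak (0.943), and for the Snurf-Snrpn locus Specc1l (0.926), Ranbp17 (0.907) and Cdk1 (0.890). For Ube3a they were a locus joined to Eif4a2 (r = 0.761), Camk2g (0.739) and Lsm6 (0.737), and for the Snhg14 locus beside it Hapln4 (0.749), Atp6v1g2 (0.738) and Atp1b2 (0.723). For XLOC_138292 they were Tmtc1 (r = 0.866), a locus joining Ssbp1 and Tas2r137 (0.863) and Peak1 (0.857). Gm22285-Snhg14 was most like Pex6 (r = 0.825), Rap1b (0.803) and Znrf3 (0.793), and Gm22128-Snhg14 most like A230072E10Rik (0.933), with Spon1 at 0.921. Among members, Gm25646-Snhg14 and the Snurf-Snrpn locus had r = 0.74 over the 18 samples, and Ube3a and Gm22285-Snhg14 had r = -0.47. All points share the libraries and the 2 compartments.

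The interval from Ube3a to Magel2 (chr7:59223847-62423245) also held 424 loci without a symbol, of 687 in all. Of these, 45 had a mean of at least 10, and 43 of the 45 (95.6%) had the higher mean in nuclear samples, beside 82.8% of 5431 such loci genome-wide. In 0 of the 45 did all nuclear samples lie above all whole cell samples, beside 2.23% genome-wide. Of the 32 tested loci with a symbol in the interval that are no members, 3 had all nuclear samples above all whole cell samples and 0 the reverse, beside the 2.91% of all tested loci given above. Inside Snhg14 there were 35 loci without a symbol, and 0 of them reached a mean of 10. Over the whole interval, the 5 loci without a symbol with the highest means had 85.1 to 184.5 normalized counts over the 18 samples. They lay outside Snhg14, between chr7:60790812 and chr7:61929686, and their nuclear and whole cell values overlapped.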

How the data were processed

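RNA held on streptavidin beads from Neuro2A lysates was sequenced by the authors in 18 samples, grouped here from the sample titles. Libraries were stranded and made after oligo-dT selection. Per the labels, the authors' tools were bcl2fastq 2.17 for base calls, Trimmomatic 0.30 for trimming, TopHat2 for alignment (GRCm38, mm10) and Cufflinks with Cuffdiff for loci. TopHat2 and Cufflinks versions and the gene model release were each not given in the sources used here. Normalized counts as deposited are a signal, reads over 1 size factor per sample. The deposited FPKM are also divided by length. Deposited comparison tables (group FPKM, log2 fold change, p-value and q-value) were not used. Of 635205 normalized counts above 0, 99.9% were whole reads within 0.02 reads, so reads were recovered. The 115957 loci without a symbol (4.51% to 15.3% of reads) were not tested.

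limma 3.58.1 (R 4.3.3, variance trend, log2(value + 1)) was the main test, since the values are not the raw counts that the design took as first choice, with adjusted p under 0.05 as the threshold. A small locus has a wide counting error, and intervals from reads cover counting error only. Alternatives were pseudocounts 0.5 and 8, filters at a mean of 1 and of 50, no filter, FPKM + 0.1, median scaling, quantile normalization, sample weights, compared groups alone, sample number as a block, edgeR 4.0.16 and DESeq2 1.42.0 on recovered reads, and each sample left out. Implied lengths used reference loci of at least 1000 nucleotides and 50 reads. Listed starts count from 0: of 23642 loci of 1 gene, 20743 matched the GENCODE M21 start after adding 1, and coordinates are given so. Named loci are all members, the 3 most like each tested member, and up to 4 genes of each other list, those with the highest mean normalized count. Loci without a symbol in the interval were counted and the 5 with the highest means described. A few loci that these rules would name are not reported here. Members and lists were chosen with earlier results of these data known. The tests were tested on simulated counts. Ratios between members, FPKM without single samples and the adjustment of implied lengths over all loci were added after seeing the data.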

Additional observations from a re-analysis of the deposited data

Results flagged for a closer look

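For the 7 tested loci, the normalized count, FPKM and implied length of the 9 nuclear and of the 9 whole cell samples were searched for a single sample far from the others (a gap over range above Dixon's 95% critical value). Of 42 such sets 10 held one, where chance flags about 1 in 20, and the sets share samples and reads. The Snurf-Snrpn locus had an FPKM of 479 in whole cell Scr sample 1, with the next highest at 51.5, and an implied length of 246 nucleotides with the next at 2270, while its normalized count there (872) was within the range of the others. Ube3a had a normalized count of 1957 and an FPKM of 193 in nuclear Scr sample 3, with the next at 1350 and 102. XLOC_138292 had 127 normalized counts and an FPKM of 35.1 in whole cell Scr sample 1, and an implied length of 409 nucleotides in nuclear Scr sample 1. Gm22285-Snhg14 had 699 normalized counts and an FPKM of 130 in nuclear Scr sample 2. The Snhg14 locus beside Ube3a had an implied length of 3773 nucleotides in whole cell miR-92b sample 3. Of the 10 values, 9 came from Scr samples. What lies behind them was not tested.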

How the results depend on the processing

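In the mean over treatments, Gm25646-Snhg14 was called under all alternatives and the Snurf-Snrpn locus under all but FPKM (0.19) and FPKM without nuclear Scr sample 3 (0.14); counts of members stayed at 2 to 3. In control, the count of 1 became 0 with a mean of at least 1 or no filter, and 2 with a mean of at least 50, median scaling, quantile normalization, sample weights, compared groups alone and DESeq2, and ran from 0 to 1 with a sample left out. With Scr it became 0 with sample weights and compared groups alone (0 to 1 with a sample left out). With miR-92b the count of 2 became 1 with a mean of at least 1, no filter, FPKM and compared groups alone (1 to 2 with a sample left out). The cause was not tested. In the 7 mimic comparisons all alternatives gave 0. Over all loci, counts of calls in the mean over treatments ran from 3752 to 5391, and for miR-92b against Scr from 0 to 49 in nuclear and 0 to 176 in whole cell samples. Pairs of loci whose ratio differed were 6 with FPKM, and 7 to 12 with a sample left out. Implied length was called for 3 to 5 loci.

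Signs turned as follows, and the cause was not tested. For the Snhg14 locus beside Ube3a (nuclear against whole cell) the log2 fold change was 0.20 with FPKM (0.27 and 0.27 without whole cell Scr sample 1 or nuclear Scr sample 3), 0.0707 with median scaling, 0.12 with quantile normalization, 0.17 with sample weights, 0.0351 with edgeR and 0.0214 with DESeq2, and -0.11 to 0.0658 with a sample left out. Gm22285-Snhg14 was at -0.22 with FPKM (-0.24 and -0.11 without those samples) and -0.061 to 0.0911 with a sample left out, and Ube3a at -0.0207 to 0.0898. The Snurf-Snrpn locus with Scr was at -0.65 with FPKM (-0.78 without nuclear Scr sample 3). In miR-92b against Scr it was at -0.0783 with FPKM and -0.0297 with DESeq2 in nuclear samples (-0.16 to 0.20 with a sample left out). In whole cell samples it was at -0.21 to 0.0467 with a sample left out, and at -1.39 with FPKM. The difference between compartments was at -0.0937 to 0.26 with a sample left out, and at 1.31 with FPKM. Ube3a was at -0.23 to 0.10 in nuclear samples, and at -0.26 with FPKM for the difference between compartments.

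Same-numbered samples of 2 groups did not deviate together (correlations of -0.04 to 0.11 over 27 pairs, of which 12 were highest with their own number). The replicate block kept 2 members called in the mean over treatments and called 5 implied lengths and 10 ratios. Loci with few reads, Magel2 among them, are limited by depth.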
